A study of Mus musculus with 8 samples.

Results

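The nuclear-encoded subunits of oxidative phosphorylation are described in mCherry+CD73+ growth plate cells of mice treated with the Hedgehog pathway agonist SAG or with its vehicle DMSO. Members were chosen by a rule on gene symbols that used no measured value, but with earlier results of these data known. The rule took symbols of the *Ndufa*, *Ndufb*, *Ndufc*, *Ndufs* and *Ndufv* series, the succinate dehydrogenase genes *Sdha* to *Sdhd*, and symbols beginning with *Uqcr*, *Cox4* to *Cox8* or *Atp5*. This gave 79 of the 16536 genes in the count table, with 36 in complex I, 4 in complex II, 8 in complex III, 14 in complex IV and 17 in complex V. The symbols also take in a few proteins that are not fixed parts of the complex they are filed under, such as *Cox7a2l*, a factor of respiratory supercomplexes, and *Atp5s*, a factor named for ATP synthase. *Ndufa4* is filed under complex I by its symbol, although its protein has been assigned to complex IV. The symbols also miss *Cyc1*, cytochrome c1 of complex III, which is given with other genes of the pathway.

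Oxidative phosphorylation takes place at the inner mitochondrial membrane. Complex I accepts electrons from NADH and complex II from succinate, complex III passes them to cytochrome c, and complex IV hands them to oxygen, while complexes I, III and IV pump protons that drive ATP synthesis by complex V. Complexes I, III, IV and V are assembled from subunits of both the nuclear and the mitochondrial genome, whereas complex II is nuclear-encoded throughout. Growth plate cartilage has no blood vessels, and its chondrocytes are known for relying strongly on glycolysis.

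Total RNA was sequenced from cells sorted by FACS from the growth plate region of Pthrp-mCherry mice, in which mCherry follows the expression of the gene of PTHrP. Both groups carried this reporter: 4 mice received SAG, an agonist of Smoothened, and 4 received DMSO, by i.p. injection from P30 to P36, and all were sacrificed at P38. The methods place the injections 1 day later than the design text does. Each library came from 1 mouse and pooled its 2 femoral growth plates, and the labels name the tissue as metaphyseal growth plate.

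Libraries held between 24971992 and 46593090 counts on genes, so that 3 counts correspond to between 0.0644 and 0.120 CPM, a floor that covers counting error only. CPM are counts scaled to a common library size with edgeR's TMM factors. Of 15421 genes tested by edgeR's quasi-likelihood test, 404 were higher and 41 were lower in SAG-treated mice at a Benjamini-Hochberg adjusted p under 0.05. The markers of the sort were present in both groups, with *Pthlh* at 18.5 ± 3.15 CPM in DMSO and 23.8 ± 4.78 CPM in SAG (SD, n = 4), and *Nt5e*, the gene of CD73, at 228 ± 47.8 and 159 ± 12.5 CPM. Markers of other cells moved with the treatment. The 12 neutrophil markers summed to between 4839 and 14471 CPM in DMSO-treated and between 27654 and 43844 CPM in SAG-treated mice, and 9 of them were called higher. The 10 B lineage markers summed to between 83.8 and 392 CPM against between 20.7 and 44.1 CPM, and 3 of the 9 tested were lower. The 12 chondrocyte markers summed to between 46136 and 102419 CPM against between 17669.9 and 53409.7 CPM, with 0 called and 10 at a p under 0.05 before adjustment, all of them lower. No marker list was at 0 in every mouse. In bulk RNA, fewer cells of a type and less RNA per cell cannot be told apart, and the part of these other cells in the results that follow was not tested except where a value is given.

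Promoters of the members were searched for the letters of 3 binding sites. Binding sites for NRF1, GABPA and YY1 are classical features of genes for respiratory subunits, and their core letters were searched on both strands in RefSeq promoters of build GRCm38.p6, from 250 bases before to 50 bases after each start. Of the 79 members, 66 matched a promoter entry, with 71 promoters in all. The NRF1 letters GCGCATGC stood in 10 of these 71 promoters (14.1%), against 2.71% of all 32851 promoters. The YY1 letters AAGATGGC stood in 10 (14.1%, against 2.75%), and the GABPA letters CCGGAAGT in 5 (7.04%, against 3.89%). At least 1 of the 3 stood in 33.8% of the member promoters, against 8.83% of all promoters. It was found in 24 members, of which 11 belong to complex I and 7 to complex V, the complexes with the most members. In 8 of the 10 members with the YY1 letters, they lay after the start and on the strand of the gene, against 30.6% of the 927 YY1 matches in all promoters. A match of letters is a description and not a measured site. The stretches shown end at the base before the earlier of the RefSeq and GENCODE starts, 5′ to 3′ on the strand of the gene, with motif letters in capitals. They can therefore stop short of the RefSeq start, and that of *Ndufb7* holds 163 of the 250 bases searched before it. *Ndufb7* is shown because it was the only member called in the comparison, and *Uqcr11* and *Uqcrh* because they had the lowest and the highest fold change of complex III.
Ndufb7, chr8:83566508-83566670, plus strand: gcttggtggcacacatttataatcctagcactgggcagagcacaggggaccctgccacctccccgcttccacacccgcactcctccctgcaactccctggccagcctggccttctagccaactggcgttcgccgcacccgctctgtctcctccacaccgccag
Uqcr11, chr10:80406831-80407071, minus strand: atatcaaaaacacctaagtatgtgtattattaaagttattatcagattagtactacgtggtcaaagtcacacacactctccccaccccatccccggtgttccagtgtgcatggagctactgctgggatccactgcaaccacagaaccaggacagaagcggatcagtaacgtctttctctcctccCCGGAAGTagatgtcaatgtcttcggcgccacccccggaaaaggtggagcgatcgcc
Uqcrh, chr4:116075072-116075320, minus strand: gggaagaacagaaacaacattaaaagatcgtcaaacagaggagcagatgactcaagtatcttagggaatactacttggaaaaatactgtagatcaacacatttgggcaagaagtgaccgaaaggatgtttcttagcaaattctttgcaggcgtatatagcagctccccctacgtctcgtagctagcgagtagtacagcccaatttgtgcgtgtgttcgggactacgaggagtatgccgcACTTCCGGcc
The capitals mark the GABPA letters, which begin 66 bases before the RefSeq start in *Uqcr11* and, on the opposite strand, 11 bases before it in *Uqcrh*. *Uqcr11* also holds the NRF1 letters, 4 bases before its RefSeq start and outside the stretch shown. None of the 3 motifs was found in the window of *Ndufb7*.

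Expression of the subunits as a whole differed little between SAG- and DMSO-treated mice. The 79 members together took between 0.494% and 0.593% of counts in DMSO-treated mice and between 0.502% and 0.586% after SAG treatment, so the 2 ranges lay almost on top of each other. Of the 78 members that passed the filter on low counts, 1 was called higher, *Ndufb7* of complex I, and 0 were called lower, 1.28% of those tested against 2.89% of all genes. Over all genes 2.62% were called higher and 0.266% lower. Before adjustment, at a p under 0.05, 3 members were higher (*Ndufb7*, *Ndufv3* and *Cox5b*) and 2 were lower (*Ndufv2* and *Uqcr11*), against 16.1% of all genes in either direction. The values of all 4 SAG-treated mice exceeded those of all 4 DMSO-treated mice in 5 members and lay below them in 2, where the same held for 7.9% and 3.84% of all genes. The member that was not tested, *Cox7a1*, had at most 26 counts in a mouse.

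The fold changes of the members stood close to 0. Their median log2 fold change was 0.07, beside -0.08 over all genes tested, with 45 members above 0 and 33 below. The log2 fold change lay within 0.5 of 0 in 66 of the 78 members (84.6%), against 52.5% of all genes, and the median standard error (SE) was 0.27 in members and 0.44 over all genes. By complex, the median was 0.06 in complex I, 0.05 in complex II, 0.07 in complex III, 0.36 in complex IV and -0.04 in complex V. By symbol, *Ndufa4*, at -0.02, was counted in complex I and *Cox7a2l*, at 0.71, in complex IV. Moving *Ndufa4* to complex IV or leaving out *Cox7a2l* would lower the median of complex IV. With either change alone it would lie between *Cox5a* at 0.23 and *Cox7c* at 0.36, above the medians given for the other complexes. In complex IV, 9 of 13 members tested lay above 0, but 0 of the 13 were called. When a score of the neutrophil markers was added to the model, the median of the members became -0.09 and that of complex IV -0.22, and with a B lineage marker score they became 0.36 and 0.75, where all genes had medians of 0.15 and -0.07 in these 2 fits. Treatment accounted for 77.9% and 82.5% of the variance of these scores, which leaves little to separate them from the treatment.

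**Figure D1:**
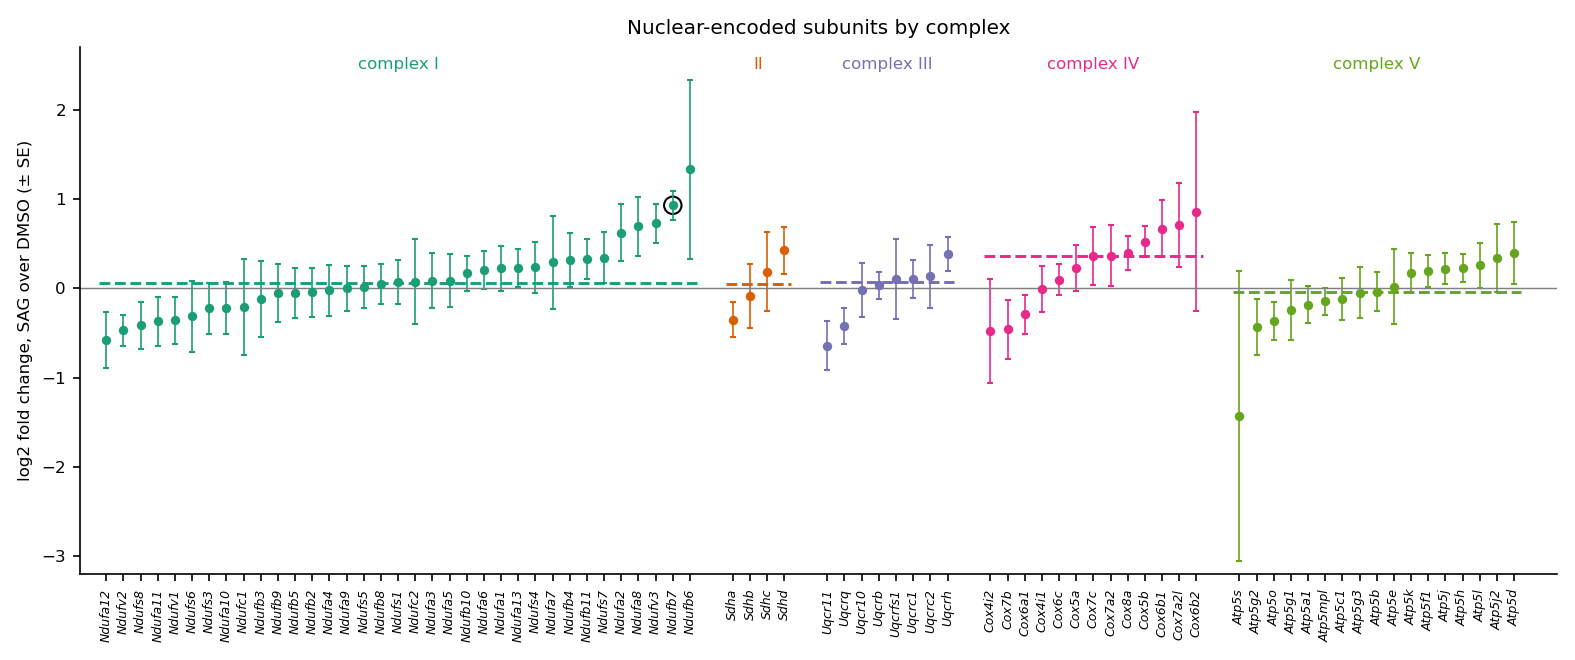
Log2 fold change of SAG over DMSO (vertical axis, points, with standard errors as bars) of 77 of the 78 tested subunits, ordered within their complex, with the median over all tested members of each complex as a dashed line and a ring around the member with an adjusted p under 0.05. Most points lie near 0, *Ndufb7* alone is ringed, and the widest bars belong to *Atp5s*, *Cox6b2* and *Ndufb6*.

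Levels within the group of subunits spanned a wide range, and on the per-length scale of TPM (counts divided by union exon length, then scaled to a common total) the order can be compared between genes. The highest mean over both groups belonged to 2 subunits of ATP synthase, *Atp5h* at 911 TPM and *Atp5k* at 899 TPM, followed by *Atp5mpl* at 744 and *Uqcrb* at 688 TPM. *Atp5h* and *Atp5k* did not differ beyond their spread, at 903 ± 52.5 and 904 ± 167 TPM (SD, n = 4) in DMSO-treated mice. The median level per complex was 170 TPM in complex IV, 121 in complex III, 75.1 in complex I, 65.6 in complex V and 55.9 in complex II. At the low end stood *Atp5s* at 2.86 TPM and *Cox7a1* at 0.834 TPM. Union exon length counts retained introns too, so the TPM of a gene such as *Ndufb7*, with 4522 exonic bases, is understated relative to that of compact genes.

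In complex I, *Ndufb7*, an accessory subunit that faces the intermembrane space, was higher in SAG-treated mice. The gene (ENSMUSG00000033938.5) is on chromosome 8 of GRCm38, from 83566671 to 83571626 on the plus strand. Its level was 69.8, 73.6, 67.0 and 61.4 CPM in DMSO replicates 1 to 4 and 135, 129, 114 and 140 CPM in SAG replicates 1 to 4. The lowest SAG value of 114 CPM stood well above the highest DMSO value of 73.6 CPM, and the spread within each group was small. The log2 fold change was 0.93 (SE 0.16, edgeR adjusted p = 0.0146). With each mouse left out in turn it stayed between 0.89 and 0.99, while the adjusted p ran from 0.00655 to 0.0668 and passed in 5 of 8 fits, failing without DMSO replicate 2 (0.0569), DMSO replicate 3 (0.0621) or SAG replicate 4 (0.0668). With the neutrophil score as a covariate the log2 fold change was 1.13 (edgeR, adjusted p = 0.238), and with the B lineage score 0.75 (edgeR, adjusted p = 0.371). Of its 4520 words of 31 bases, 11 were shared with the pseudogene *Gm13171*, the largest overlap with any other gene's transcripts.

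*Ndufv3* and *Ndufv2* encode neighbouring parts of the NADH-oxidizing module of complex I, *Ndufv2* a core subunit with an iron-sulfur cluster and *Ndufv3* a small accessory subunit. *Ndufv3* stood at 58.4, 45.7, 61.7 and 77.5 CPM in DMSO-treated and at 91.2, 118, 82.1 and 111 CPM in SAG-treated mice. All 4 SAG-treated mice lay above all DMSO-treated mice, with a log2 fold change of 0.73 (SE 0.21, edgeR adjusted p = 0.101). Its adjusted p passed in 2 of 19 alternative fits, without DMSO replicate 4 (edgeR, 0.0187) and with limma voom (0.0219). With the neutrophil score in the model the direction of *Ndufv3* turned, to a log2 fold change of -0.06 (edgeR, adjusted p = 0.956). *Ndufv2* stood at 84.2, 93.1, 74.4 and 86.2 CPM in DMSO-treated and at 52.0, 63.2, 62.1 and 66.6 CPM in SAG-treated mice. Its groups did not overlap either, in the opposite direction, and its log2 fold change was -0.47 (SE 0.18, edgeR adjusted p = 0.205). Another core subunit of that module, *Ndufv1*, which binds NADH and FMN, had a log2 fold change of -0.36 (SE 0.26) and overlapping groups.

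Other core subunits of complex I carry the chain of iron-sulfur clusters and the site of quinone reduction. *Ndufs1*, *Ndufs3*, *Ndufs7* and *Ndufs8* had log2 fold changes of 0.07, -0.22, 0.34 and -0.41, each with overlapping groups and an adjusted p of at least 0.508 from edgeR. Among accessory subunits, *Ndufa2* was the third member of complex I whose SAG values all lay above the DMSO values, at 28.9, 29.7, 37.6 and 34.6 CPM against 28.0, 28.6, 13.7 and 14.4 CPM. The nearest mice of the 2 groups were 28.6 and 28.9 CPM, and its unadjusted p was 0.0722. The highest fold change of the complex was that of *Ndufb6*, an accessory subunit of the membrane arm, at 1.33 with a SE of 1.00. *Ndufb6* had 7.997, 5.25, 5.56 and 0 CPM in DMSO-treated and 13.3, 5.58, 11.3 and 17.3 CPM in SAG-treated mice, and without DMSO replicate 4, the mouse with a count of 0, its log2 fold change was 0.95. *Ndufb6* shares 39.0% of its exonic bases with *Smim27* on the opposite strand, and whether strand was used in counting is not given in the sources used here. The lowest fold change was that of *Ndufa12* at -0.58 (SE 0.31), a late-joining accessory subunit whose groups overlapped.

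**Figure D2:**
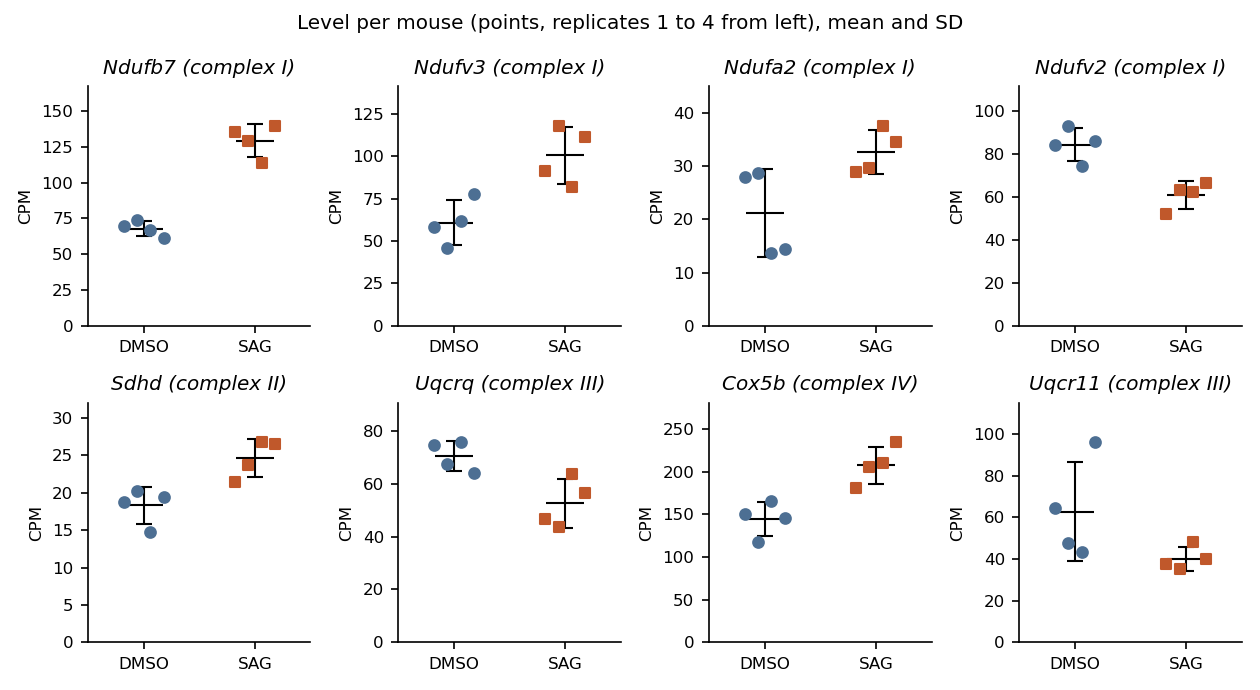
Level in CPM (vertical axis, from 0) of 8 subunits in each mouse, DMSO as blue circles and SAG as orange squares with replicates 1 to 4 from left to right, and the mean with its SD as a bar. The groups do not overlap in any panel but that of *Uqcr11*, although the nearest mice almost meet in *Ndufa2* and *Uqcrq*. The gap is widest in *Ndufb7*.

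In complex II, which also belongs to the citric acid cycle, 0 of 4 subunits were called. *Sdhd*, one of the membrane anchors, was measured at 18.7, 20.3, 14.8 and 19.5 CPM in DMSO-treated and at 21.5, 23.7, 26.7 and 26.6 CPM in SAG-treated mice. The groups did not overlap, with nearest mice of 20.3 and 21.5 CPM, and the log2 fold change was 0.43 (SE 0.26, edgeR adjusted p = 0.486). *Sdha*, the flavoprotein that oxidizes succinate, had a log2 fold change in the other direction, -0.35 (SE 0.20). Its level was 169, 155, 104 and 137 CPM in DMSO-treated and 123, 122, 103 and 94.4 CPM in SAG-treated mice, with *Sdha* of DMSO replicate 3 inside the range of the SAG group. The iron-sulfur subunit *Sdhb* and the second anchor *Sdhc* had log2 fold changes of -0.09 and 0.19 with SEs of 0.36 and 0.44.

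In complex III, 3 core subunits had log2 fold changes near 0 in the fit of all mice. The Rieske iron-sulfur protein *Uqcrfs1* and the core proteins *Uqcrc1* and *Uqcrc2* stood at 0.10, 0.11 and 0.14, with SEs of 0.45, 0.21 and 0.35. *Uqcrfs1* was measured at 19.1, 15.4, 17.3 and 63.7 CPM in DMSO-treated and at 37.7, 35.7, 23.2 and 27.5 CPM in SAG-treated mice. DMSO replicate 4 alone stood above the SAG group, while the other 3 lay below it, and without DMSO replicate 4 the log2 fold change was 0.87 (edgeR, adjusted p = 0.0755). Small subunits gave the lowest and the highest values. *Uqcr11* stood at 64.2, 47.7, 43.1 and 95.9 CPM in DMSO-treated and at 37.5, 35.1, 48.3 and 39.8 CPM in SAG-treated mice, with a log2 fold change of -0.64 (SE 0.27, edgeR adjusted p = 0.267) and with overlap between the groups. Without DMSO replicate 4, its highest mouse, the log2 fold change of *Uqcr11* was -0.33, and with limma voom it was -0.37. *Uqcrq*, a ubiquinone-binding subunit, lay lower in every SAG-treated mouse, at 46.5, 43.4, 63.7 and 56.5 CPM against 74.4, 67.3, 75.5 and 63.9 CPM. The nearest mice had 63.7 and 63.9 CPM, and the unadjusted p was 0.0561. *Uqcrh*, the hinge protein next to cytochrome c1, had the highest log2 fold change at 0.38 (SE 0.19). *Uqcrb*, singled out after its values were seen, was the steadiest of the complex, between 182 and 199 CPM in DMSO-treated and between 169 and 202 CPM in SAG-treated mice. It shares 32.4% of its 31-base words with transcripts of other genes.

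Complex IV, as filed by symbol, had the highest median of the 5 complexes, with 0 of 13 members called. *Cox5b*, a peripheral zinc-binding subunit, is a gene of chromosome 1, from 36691449 to 36693681. Its level was 150, 118, 165 and 146 CPM in DMSO-treated and 181, 205, 210 and 234 CPM in SAG-treated mice. The lowest SAG value stood above the highest DMSO value, with a log2 fold change of 0.52 (SE 0.17, edgeR adjusted p = 0.142). Of 19 alternative fits, only limma voom called *Cox5b* (adjusted p = 0.0483), and its log2 fold change lay between 0.25 with the neutrophil score and 0.96 with the B lineage score. Its partner *Cox5a* had a log2 fold change of 0.23 (SE 0.26). *Cox5b* shares 16.1% of its 31-base words with other genes. *Cox6b1*, which bridges the monomers of the enzyme, was at 0.67 (SE 0.32), with 29.1, 28.1, 54.0 and 51.1 CPM in SAG-treated mice against 23.1, 29.7, 32.4 and 16.9 CPM.

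In complex V, 0 of 17 members were called and 16 had a log2 fold change within 0.5 of 0. The main subunits of the catalytic F1 part had log2 fold changes of -0.18 (*Atp5a1*), -0.04 (*Atp5b*) and -0.12 (*Atp5c1*), with SEs between 0.21 and 0.24. *Atp5b*, the catalytic beta subunit, stood at 266, 132, 194 and 190 CPM in DMSO-treated and at 187, 179, 230 and 165 CPM in SAG-treated mice, all of the latter within the vehicle range. *Atp5d*, the delta subunit of the central stalk, had the highest log2 fold change at 0.39 (SE 0.34). *Atp5s* had the lowest at -1.43 with a SE of 1.63, from counts of 236, 55, 114 and 0 in DMSO-treated and 0, 87, 54 and 16 in SAG-treated mice.

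Several subunits exist as paralogs that tissues use in different ratios, and 6 of 8 such pairs had both genes in the table. The log2 ratio of counts, with 0.5 added to each count, was compared by an exact 2-sided permutation test over the 70 relabellings, with Benjamini-Hochberg adjustment over the 6 pairs. No pair passed, with an adjusted p of 0.714 in each of the 6. The smallest p of this test is 0.0286, or 0.171 after adjustment for a single separated pair, so at least 4 pairs would have to separate fully for any to pass. The subunit IV isoform *Cox4i2*, known as the form of lung and of low oxygen, was measured at 106, 85.2, 212 and 181 CPM in DMSO-treated and at 34.5, 28.3, 125 and 232 CPM in SAG-treated mice. The ubiquitous *Cox4i1* was measured at 100.5, 65.2, 68.9 and 143 CPM and at 82.8, 83.0, 107 and 102 CPM. Counts of *Cox4i2* thus reached or exceeded those of *Cox4i1* in 4 of 4 DMSO-treated and 2 of 4 SAG-treated mice. The log2 ratio of *Cox4i2* to *Cox4i1* was 0.61 ± 0.69 (SD, n = 4) in DMSO-treated and -0.35 ± 1.29 in SAG-treated mice (exact permutation p = 0.229). In both groups the higher *Cox4i2* values were those of replicates 3 and 4. The same mice had the higher mean of erythroid markers, at 6.76 and 7.84 log2 CPM in DMSO and 7.66 and 6.37 in SAG against between 3.84 and 4.97 in the others. *Ibsp*, 1 of 8 osteoblast markers, was also higher in them, at 1856 and 1447 CPM in DMSO and 1201 and 1774 CPM in SAG. In the others *Ibsp* lay between 316 and 1234 CPM, while the mean of the osteoblast markers did not follow the replicate numbers in this way. The part of other cells in the *Cox4i2* values was not tested. With an erythroid marker score as a covariate, an alternative chosen after these values were seen, the log2 fold change of *Cox4i2* was -0.45 with a SE of 0.40, beside -0.48 with 0.58 without it. Leaving out 1 mouse moved that of *Cox4i2* to between -1.22 (without SAG replicate 4) and -0.16 (without SAG replicate 2), and with the B lineage score it turned to 1.44.

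The heart and muscle isoform *Cox7a1* was near the floor, with 0.593 CPM at most, and the liver isoform *Cox7a2* stood between 11.3 and 24.2 CPM. The testis isoform *Cox6b2* ran from 0.067 to 8.96 CPM in DMSO-treated and from 2.83 to 8.94 CPM in SAG-treated mice. For subunit c of ATP synthase, 3 genes encode the same mature protein. *Atp5g1*, *Atp5g2* and *Atp5g3* had mean levels of 16.8, 16.7 and 34.8 CPM in SAG-treated mice and log2 fold changes of -0.24, -0.43 and -0.05. The log2 ratio of *Atp5g1* to *Atp5g2* was between -0.82 and -0.54 in DMSO replicates 1 to 3 and 1.31 in DMSO replicate 4, so the spread in the vehicle group came from 1 mouse. *Atp5g2* shares 40.2% of its 31-base words with other genes, chiefly *Gm10175*, the largest share of any member, and its values are uncertain to that extent.

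**Figure D3:**
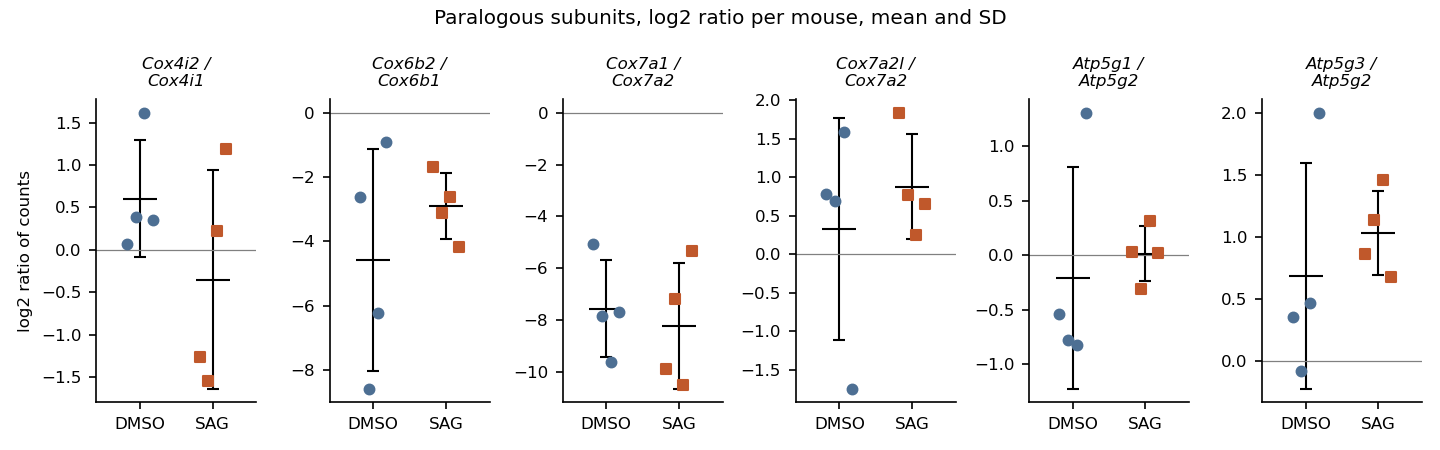
Log2 ratio of counts of 2 paralogous subunits in each mouse (vertical axis, a scale of its own in each panel), DMSO as blue circles and SAG as orange squares with replicates 1 to 4 from left to right, and the mean with its SD. The groups overlap in all 6 panels, and DMSO replicate 4 stands apart in the panels of *Cox7a2l* to *Cox7a2*, *Atp5g1* to *Atp5g2* and *Atp5g3* to *Atp5g2*.

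The 13 subunits encoded by mitochondrial DNA complete complexes I, III, IV and V. They took 0.999%, 0.972%, 1.33% and 1.48% of counts in DMSO-treated and 0.866%, 0.745%, 1.178% and 1.13% in SAG-treated mice, with overlapping groups. The ratio of mitochondrial to nuclear subunit counts was 1.92, 1.97, 2.33 and 2.50 in DMSO-treated and 1.56, 1.48, 2.01 and 1.98 in SAG-treated mice. In both measures replicates 3 and 4 stood above replicates 1 and 2 in either group, as they did for the erythroid markers. None of the 13 was called by edgeR's quasi-likelihood test, 1 was lower before adjustment (p under 0.05, 7.69% against 16.1% of all genes), and 10 had a log2 fold change below 0, with a median of -0.33 beside -0.08 over all genes. That gene was *mt-Nd6*, the subunit of complex I encoded on the light strand. It lay lower in every SAG-treated mouse, at 307, 271, 390 and 404 CPM against 434, 496, 531 and 530 CPM, with a log2 fold change of -0.54 (SE 0.18, edgeR adjusted p = 0.152). With the erythroid score as a covariate, the median of the 13 was -0.25 and 0 were called by edgeR.

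**Figure D4:**
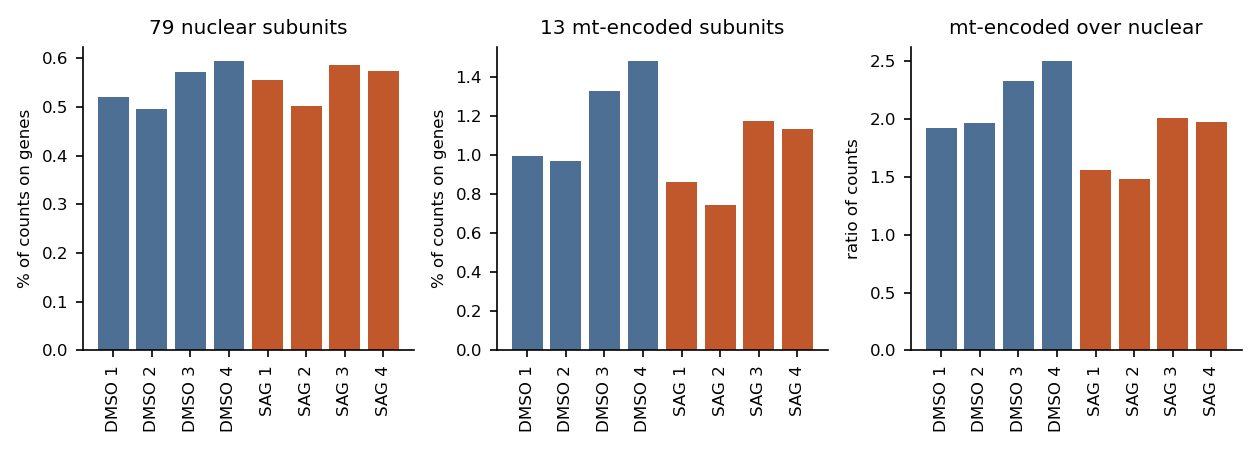
Percent of all counts on genes that fell on the 79 nuclear subunits (left) and on the 13 mitochondrially encoded subunits (middle), and the ratio of the second to the first (right), as 1 bar per mouse with DMSO in blue and SAG in orange. The nuclear share is between 0.494% and 0.593% in every mouse, while the ratio is highest in DMSO replicate 4 at 2.50 and lowest in SAG replicate 2 at 1.48.

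Some mitochondrial genes scattered far more than the rest. *mt-Co2*, a catalytic subunit of complex IV, had 272, 0.112, 167 and 158 CPM in DMSO-treated and 0.632, 100.03, 285 and 110 CPM in SAG-treated mice, which is 5 counts in the lowest mouse and 11664 in the highest. *mt-Atp6*, a subunit of the proton channel of ATP synthase, had 415, 13.8, 531 and 32.5 CPM in DMSO-treated and 1.75, 167, 267 and 930 CPM in SAG-treated mice. Neighbouring genes of the same genome did not show this scatter: *mt-Nd1* lay between 568 and 1106 CPM in all mice, and *mt-Co1* between 2618 and 4200.4 CPM. In the GENCODE M21 transcripts, 100% of the 31-base words of *mt-Co2*, 99.9% of those of *mt-Co3* and 99.5% of those of *mt-Atp6* also stand in other genes, chiefly the nuclear pseudogenes *Gm28661*, *Gm28437* and *Gm10925*, which are not among the genes of the count table. The 6 genes with under 20% shared words had a highest value between 1.95 and 2.61 times the lowest over the 8 mice, and the 5 with over 95% had one between 2.54 and 2556 times the lowest. *mt-Nd3*, with 98.1% shared words, was among the latter at 2.54 times. The part of shared sequence in these values was not tested.

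**Figure D5:**
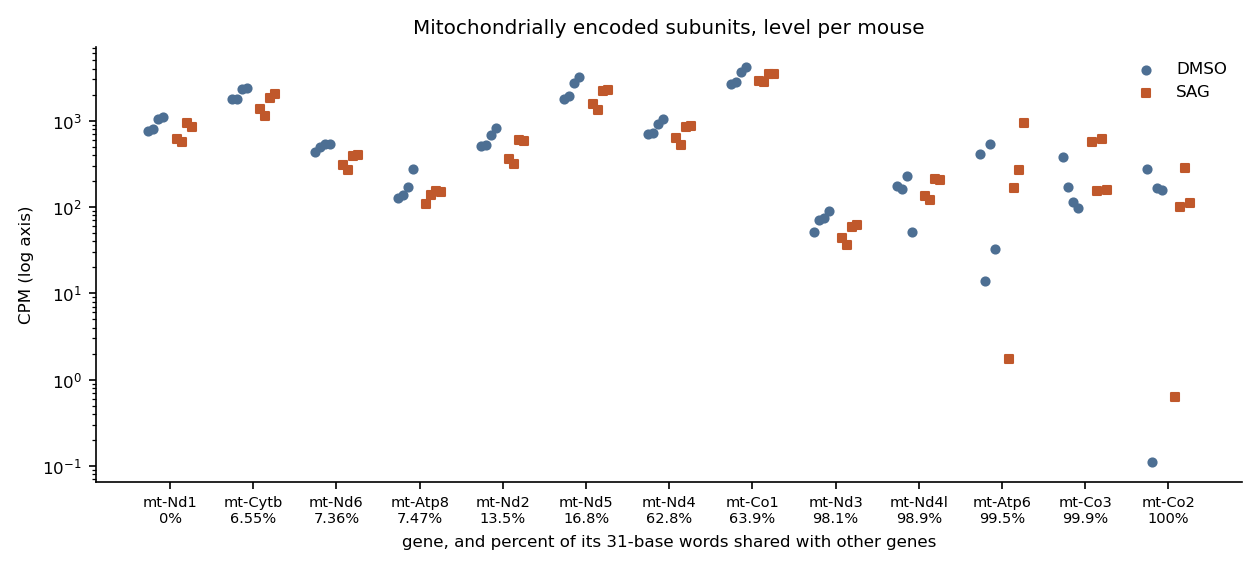
Level in CPM (vertical log axis) of the 13 mitochondrially encoded subunits in each mouse, DMSO as blue circles and SAG as orange squares, ordered from left to right by the percent of 31-base words that the gene shares with other genes. The 8 genes on the left stay within a narrow band, while *mt-Atp6*, *mt-Co3* and *mt-Co2* on the right scatter, *mt-Co2* down to 0.112 CPM.

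Other genes of the pathway gave 0 calls in edgeR's test at an adjusted p under 0.05, and their counts at a p under 0.05 before adjustment follow, to be read against 16.1% of all genes at that p. Cytochrome c and cytochrome c1, which carry electrons to and within the later complexes, had log2 fold changes of 0.58 (*Cycs*, SE 0.35) and 0.00 (*Cyc1*, SE 0.26), both above that p. Of 7 genes of mitochondrial carriers and channels (*Slc25a3*, *Slc25a4*, *Slc25a5*, *Vdac1*, *Vdac2*, *Vdac3* and *Ucp2*), none passed it in either direction. Of 47 assembly factors, 2 (4.26%) were higher and 0 lower, a share below that of all genes, with a median log2 fold change of 0.21. These were *Cox17*, a copper chaperone of complex IV, at 0.61, and *Pet100*, an assembly factor of the same complex, at 0.72, both named after their values were seen. *Pet100* was measured at 75.2, 93.8, 117 and 127 CPM in DMSO-treated and at 131, 174, 173 and 203 CPM in SAG-treated mice, with no overlap (SE 0.21, edgeR adjusted p = 0.101).

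Of 16 regulators of mitochondrial genes, 2 (12.5%) were lower, a share near that of all genes. *Pprc1*, a coactivator of the PGC-1 family, was measured at 67.7, 68.1, 68.0 and 78.4 CPM in DMSO-treated and at 62.7, 40.1, 52.6 and 39.5 CPM after SAG, a log2 fold change of -0.53 (SE 0.21, edgeR adjusted p = 0.236). *Tfam*, the packaging and transcription factor of mitochondrial DNA, had 9.96, 16.2, 24.2 and 21.8 CPM against 6.98, 9.01, 12.0 and 9.17 CPM, a log2 fold change of -0.96 (SE 0.38, edgeR adjusted p = 0.243). *Ppargc1a*, the best known of that family, was low, between 1.38 and 4.28 CPM in all mice. Of 16 citric acid cycle genes, *Mdh2* and *Dlst* were higher and *Fh1* lower, a share of 18.8% that is also near that of all genes. *Mdh2*, mitochondrial malate dehydrogenase, lay above the vehicle range in every SAG-treated mouse, at 215, 247, 219 and 221 CPM against 115, 127, 150 and 169 CPM, but its log2 fold change of 0.69 missed the threshold (SE 0.17, edgeR adjusted p = 0.0602). Of 79 genes with symbols of mitochondrial ribosomal proteins, which include the pseudogene *Mrpl23-ps1*, 3 were higher and 7 lower (12.7%). Of the same 79, 59 had a log2 fold change below 0 (74.7%, against 54.8% of all genes), and the median was -0.20, beside -0.08 over all genes. *Gapdh* of glycolysis was called higher, as were 2.62% of all genes, with 262 ± 32.7 CPM under DMSO and 437 ± 51.3 CPM under SAG (SD, n = 4) (log2 fold change 0.74, edgeR adjusted p = 0.0403). No other gene of glycolysis was examined here, so this value does not describe that pathway.

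The spread of the subunits, like that of all genes, was wider in the vehicle group, a difference that was not tested. The median coefficient of variation over the members was 26.2% in DMSO-treated and 17.1% in SAG-treated mice, beside 44.5% and 31.7% over all genes, and 57 of 78 members (73.1%) varied more in the vehicle group, as did 67.8% of all genes. Without DMSO replicate 4 the value of the vehicle group was 19.0% for members and 31.2% for all genes. This mouse, whose library was the shallowest, had the lowest value of all 8 mice in 23 members and the highest in 19. Members in it lay a median of 0.53 log2 units from the mean of their group mates, against between 0.22 and 0.31 in the other 7 mice. Members at 0 counts numbered 2 in it (*Ndufb6* and *Atp5s*), as in SAG replicate 1 (*Atp5s* and *Cox7a1*). With it left out, 2 members were called higher, *Ndufb7* and *Ndufv3*, and 0 lower, among 1017 higher and 343 lower genes over the whole table.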

How the data were processed

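Total RNA of sorted mCherry+CD73+ cells was sequenced from 8 mice, 1 library per mouse. The authors deposited raw counts per gene. The labels name kallisto, DESeq2 and GRCm38 without their roles or versions, and the counting step is not given further in the sources used here. Groups and replicate numbers were taken from the labels.

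The main test was that of edgeR 4.0.16 in R 4.3.3 (filterByExpr, TMM, robust quasi-likelihood test, 2-sided, Benjamini-Hochberg over all 15421 tested genes, threshold 0.05). DESeq2 1.42.0, limma 3.58.1, other scalings and filters, a replicate block, marker scores and each mouse left out in turn were alternatives. Fits were tested on simulated data with planted changes larger than that of any tested member. That check does not show how well changes of the size reported here are found. Log2 CPM used a prior count of 2. Identifiers, positions, exon lengths and transcripts came from GENCODE M21, and promoters from RefSeq (GRCm38.p6). A 31-base word of a gene was called shared if it occurs in a transcript of another gene.

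Named members were those called, the highest and lowest of each complex, the core subunits (1 of which is not reported here), the isoform pairs and members with non-overlapping groups and an unadjusted p under 0.05, and others are named as examples. The members and lists were chosen with earlier results of these data known. Protein sequences were not used here.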

Additional observations from a re-analysis of the deposited data

Results flagged for a closer look

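Dixon's test at its 95% critical value for groups of 4 was applied to 86 pairs of a measure and a group, of which chance gives about 1 in 20, or 4.3 here, and 6 stood out. Each is a mouse far from the other 3 of its group, given with its gap as a share of the range of the group. In DMSO replicate 4, *Uqcrfs1* was 63.7 CPM beside 19.1 CPM in the nearest mouse (gap 0.922), and *Atp5a1* was 90.2 CPM beside 154 CPM (gap 0.835). In SAG replicate 3, *Atp5d* was 38.2 CPM beside 31.4 CPM (gap 0.932). In SAG replicate 1, *Sdhb* was 49.3 CPM beside 35.98 CPM (gap 0.860). In SAG replicate 4, *Cox7a1* was 0.593 CPM beside 0.0951 CPM (gap 0.840), and in SAG replicate 2 the share of counts on complex III was 0.0496% beside 0.0597% (gap 0.918).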

How the results depend on the processing

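The log2 fold change of *Ndufb7* kept its direction in all 19 alternative fits, between 0.75 and 1.13, and its call was made in 14 of them. Scaling by DESeq2's factors moved the median of all genes from -0.08 to -0.11, scaling by plain totals moved it to -0.14, and the members moved with it. Over all genes, 812 were higher and 413 lower with DESeq2, 982 and 388 with limma voom, and 87 were lower with at least 10 counts in every mouse. With limma voom 3 members were called higher (*Ndufb7*, *Ndufv3*, *Cox5b*), and the median of complex V was 0.11. The cause of these differences was not tested.

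With the neutrophil score as a covariate, 0 genes were higher and 11 lower, 0 members were called, and the medians were -0.095 over the members, -0.095 in complex I, -0.12 in complex III and -0.22 in complex IV. With the B lineage score, 256 genes were higher, 0 members were called, and the medians were 0.36 over the members, 0.64 in complex II, 0.22 in complex III, 0.75 in complex IV and 0.36 in complex V.

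The labels give no origin shared by mice of 1 replicate number, and the correlations of same-numbered deviations were 0.24, -0.01, 0.03 and 0.00, with 1 of 4 over the minimum of 0.1 and 1 of 4 mice per group closest to its own number. The numbers were therefore not taken as pairs, although replicates 3 and 4 of both groups had the higher erythroid and mitochondrial values, and whether mice share a structure by number was not tested further. With a replicate block 18 genes were lower, *Ndufb7* had an adjusted p of 0.0485 (edgeR), and of the members the named ones *Sdhb* (0.060) and *Cox4i1* (0.054) took the other sign.

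Other named members took the other sign elsewhere, and some were not near 0 in the reported fit, such as *Ndufb6*, *Atp5s*, *Cox6b2*, *Ndufv3* and *Cox4i2*, at 1.33, -1.43, 0.86, 0.73 and -0.48. With limma voom these included *Sdhb* (0.33), *Cox4i1* (0.28), *Atp5b* (0.042), *Atp5c1* (0.011), *Atp5g1* (0.029) and *Atp5g3* (0.11). With the neutrophil score they were *Cox6b2* (-1.03), *Atp5s* (1.41), *Ndufs1* (-0.70), *Sdhc* (-0.11), *Uqcrfs1* (-1.68), *Cox5a* (-0.41), *Atp5a1* (0.57), *Atp5g2* (0.49), *Cox7a2* (-0.22) and *Ndufv3* (-0.057). With the B lineage score they included *Ndufb6* (-0.23), *Cox4i2* (1.44), *Ndufs3* (0.054), *Sdhb* (1.11), *Cox4i1* (0.36), *Atp5c1* (1.07), *Atp5g1* (0.14) and *Atp5g3* (0.78). With the erythroid score, chosen after the data were seen, they included *Sdhb* (0.083), *Cox4i1* (0.085) and *Atp5g3* (0.043).

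With each mouse left out in turn, between 80 and 1017 genes were higher and between 4 and 343 lower, and between 0 and 2 members were higher, 2 of them without DMSO replicate 4. The median was between -0.13 and 0.19 in complex II, -0.040 and 0.096 in complex III, and -0.16 and 0.14 in complex V. That of complex IV stood between 0.27 and 0.44 above the median of all genes in these fits. Ranges that cross 0 included those of *Atp5b* (-0.19 to 0.15), *Atp5c1* (-0.24 to 0.012), *Atp5g1* (-0.41 to 0.12), *Atp5g3* (-0.16 to 0.22), *Cox4i1* (-0.16 to 0.29), *Ndufs1* (-0.050 to 0.30), *Sdhb* (-0.33 to 0.35), *Sdhc* (-0.12 to 0.57), *Uqcrc2* (-0.058 to 0.36) and *Uqcrfs1* (-0.11 to 0.87).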
